A study of Arabidopsis thaliana with 24 samples.

Results

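The SAUR (SMALL AUXIN UP RNA) genes described here are the 32 members of the family that the deposited table lists outside the SAUR19-24 and SAUR61-68 clusters and that were chosen by gene identifier: SAUR1 to SAUR16, SAUR25 to SAUR29, SAUR31, SAUR32, SAUR36, SAUR40, SAUR41, SAUR50, SAUR55, SAUR71, SAUR72, SAUR76 and SAUR78. They are 32 of 33026 genes in the table and 32 of 79 genes that the reference annotation or the table names SAUR. RNA was sequenced from whole Arabidopsis thaliana seedlings of 3 genotypes, the Col-0 wild type (WT) and lines labelled pif7-1 and ref6-1, each with 2 histories and 2 lights and 2 libraries a group, 24 in all. Naive seedlings were 4 days old when they received 8 h of white light, and primed seedlings received 8 h of shade instead (red to far-red light near 0.5). All then spent 40 h in white light before they were kept in white light or given 1 h of shade. The study's question was whether an earlier shade episode alters the later response. Values are TPM, a transcript level scaled for gene length and library size.

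SAUR genes encode short proteins, and many of them are switched on within minutes by auxin. Known SAUR proteins bind and inhibit phosphatases of the PP2C.D group, which leaves plasma membrane proton pumps phosphorylated and active, acidifies the cell wall and lets cells expand. In shade, PIF7, a bHLH transcription factor, raises auxin synthesis, and REF6 is a histone demethylase that removes methyl marks from histone H3 lysine 27.

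PIF7 was listed at 1.09 to 3.03 TPM in the 8 pif7-1 libraries, against 28.4 to 76.6 TPM in the 8 WT libraries and 19.2 to 60.2 TPM in the 8 ref6-1 libraries. REF6 overlapped between genotypes (6.16 to 10.9 TPM in ref6-1 and 8.13 to 12.9 TPM in WT), so its level does not check the ref6-1 label. The 4 libraries labelled naive ref6-1 stood apart at ATXR7, a histone methyltransferase gene, which was listed at 0 to 0.02 TPM there and at 7.2 to 8.6 TPM in the 4 labelled primed ref6-1. The pif7-1 libraries held 4.44 to 9.94 TPM of it, and the WT libraries 6.83 to 12.9 TPM. The sets labelled naive and primed ref6-1 may therefore not be of 1 line, and they are named here by their labels. The 8 naive mutant libraries form a separate, later block of the deposit and lack the label for history that the other 16 carry, so their history was read from the prefix of their titles. For this reason no naive mutant level was tested against WT, only their responses to shade. The labels do not say whether the 2 libraries of a group came from separate cultures, and p-values measure the spread between these libraries, which may be technical. Replicates correlated at r = 0.961 to 0.985 across genes, 18614 to 20007 genes a library reached 1 TPM, and the depth is unknown, since TPM does not retain it.

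In promoters, CATGTG is a known binding motif of phytochrome-interacting factors (the PBE-box), CACGTG is the G-box bound by the same family, and TGTCTC and TGTCGG are motifs bound by auxin response factors. In the 300 bases before the annotated gene start, read on both strands, 16 of the 32 genes held CATGTG, against 13.1% of 27443 genes with such a window. None held CACGTG (7.09% of all), SAUR7 and SAUR15 held TGTCTC (12.97% of all; the SAUR7 window lies within the annotated SAUR6 gene), and SAUR28 held TGTCGG (4.91% of all). No hexamer of the 4 contains another, each was counted once per gene, and a match is a description of the sequence only. Head-to-head pairs share upstream sequence: SAUR27 and SAUR28 have 91 bases in common between their windows, and SAUR14 and SAUR15 have 103. Each shared stretch holds a CATGTG site that was counted for both genes of its pair. The numbers of genes with CATGTG are therefore not numbers of separate sites. The 5 windows below are shown because SAUR28 and SAUR26 were among the genes that rose most in shade, SAUR15 rose while its partner SAUR14 did not, and SAUR31 fell. Sequences and positions are those of the RefSeq genome and annotation of build TAIR10.1, found by gene identifier; the authors' files hold no positions. Each is written 5′ to 3′ on the strand of its gene, and capitals mark the motif matches of either strand.
SAUR28, minus strand, chr3:980563-980862: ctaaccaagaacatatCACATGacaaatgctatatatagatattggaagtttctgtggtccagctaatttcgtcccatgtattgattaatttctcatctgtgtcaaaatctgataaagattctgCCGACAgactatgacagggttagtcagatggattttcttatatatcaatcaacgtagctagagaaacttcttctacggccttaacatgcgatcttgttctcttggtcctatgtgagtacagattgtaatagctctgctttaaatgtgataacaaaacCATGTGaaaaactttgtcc
SAUR26, plus strand, chr3:982757-983056: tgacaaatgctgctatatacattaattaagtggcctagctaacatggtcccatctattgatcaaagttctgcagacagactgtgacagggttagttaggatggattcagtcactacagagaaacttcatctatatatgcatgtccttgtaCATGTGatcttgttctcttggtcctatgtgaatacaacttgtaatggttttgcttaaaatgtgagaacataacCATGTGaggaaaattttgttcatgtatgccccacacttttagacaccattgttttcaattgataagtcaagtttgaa
SAUR15, plus strand, chr4:18125757-18126056: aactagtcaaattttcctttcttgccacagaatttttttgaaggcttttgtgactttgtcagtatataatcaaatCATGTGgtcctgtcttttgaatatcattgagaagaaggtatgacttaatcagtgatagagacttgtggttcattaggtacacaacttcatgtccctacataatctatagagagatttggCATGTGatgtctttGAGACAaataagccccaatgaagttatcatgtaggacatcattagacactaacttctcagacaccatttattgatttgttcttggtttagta
SAUR14, minus strand, chr4:18125560-18125859: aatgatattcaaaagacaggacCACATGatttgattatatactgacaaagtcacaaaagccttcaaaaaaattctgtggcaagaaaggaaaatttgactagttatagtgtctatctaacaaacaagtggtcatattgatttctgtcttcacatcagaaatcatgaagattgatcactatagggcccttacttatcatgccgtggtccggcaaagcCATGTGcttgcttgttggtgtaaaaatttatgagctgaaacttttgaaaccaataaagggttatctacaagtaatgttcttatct
SAUR31, minus strand, chr4:367275-367574: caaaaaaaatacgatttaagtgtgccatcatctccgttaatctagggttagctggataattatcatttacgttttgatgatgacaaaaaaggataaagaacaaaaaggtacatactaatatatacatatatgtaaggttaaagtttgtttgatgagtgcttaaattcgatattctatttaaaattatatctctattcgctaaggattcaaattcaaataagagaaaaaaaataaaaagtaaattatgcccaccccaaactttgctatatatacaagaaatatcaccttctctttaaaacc
The capitals in SAUR28 are 2 CATGTG matches and 1 TGTCGG match, those in SAUR26 and SAUR14 are 2 CATGTG matches each, and those in SAUR15 are 2 CATGTG matches and 1 TGTCTC match; SAUR31 held none of the 4 motifs in this window.

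Of the 32 genes, 28 reached 1 TPM in at least 2 libraries and could be tested. SAUR2, SAUR11, SAUR25 and SAUR40 did not: SAUR2 peaked at 0.68 TPM, SAUR40 at 0.27 TPM and SAUR25 at 0.94 TPM, and SAUR11 reached 1.33 TPM in 1 WT naive white light library only. SAUR25 was listed at 0 in both WT naive white light libraries and at 0.94 and 0.52 TPM in the 2 naive shade libraries, too low for a test. SAUR76, whose product is known to bind ethylene receptors, was the tested gene nearest the limit and reached 1 TPM in 3 libraries.

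A few genes made up most of the summed level of the 32. SAUR14 (mean 187 TPM over 24 libraries), SAUR6 (mean 172 TPM), SAUR16 (mean 131 TPM), SAUR78 (mean 94.7 TPM) and SAUR50 (mean 65.1 TPM) together made up 52.1 to 75.1% of the summed level of the 32 genes in every library. SAUR16 and SAUR50 are known for promoting cotyledon opening in light. At the other end of the tested genes, SAUR76 had a mean of 0.58 TPM. SAUR5, SAUR8 and SAUR41 followed with means of 1.37, 1.56 and 2.15 TPM. The summed level of the 32 genes was 778 to 877 TPM in WT naive white light and 1220 to 1242 TPM in WT naive shade, and 865 to 1012 TPM against 1047 to 1052 TPM in primed seedlings. Seedlings were sequenced whole, so fewer cells of a type and less RNA per cell cannot be told apart.

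**Figure D1:**
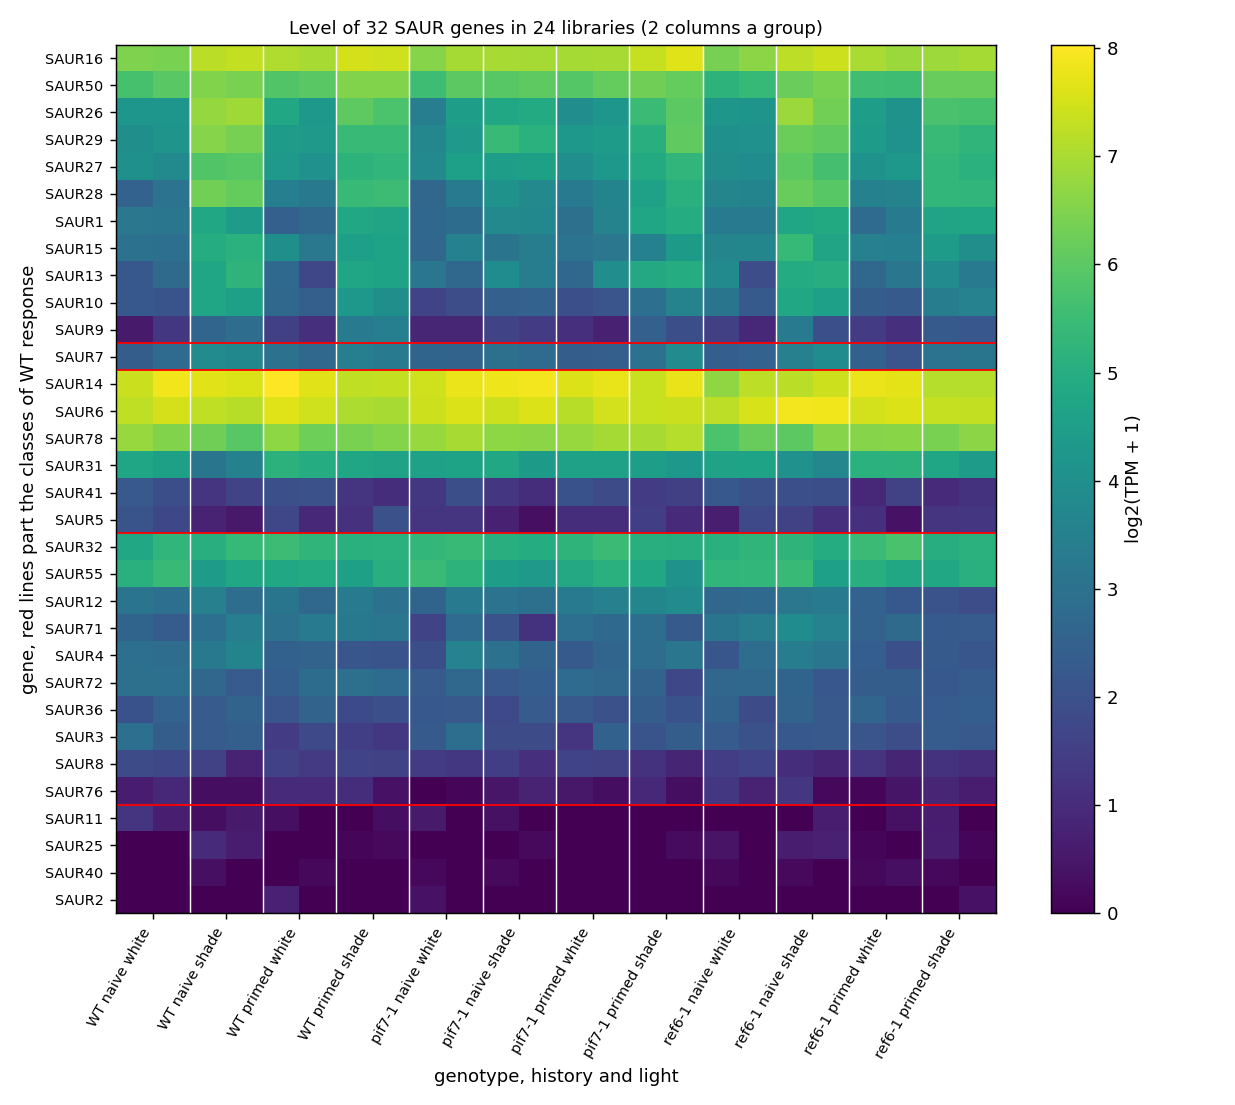
Level of each of the 32 SAUR genes as log2(TPM + 1) (colour) in 24 libraries, 2 columns for each genotype, history and light. Red lines part genes that rose in both WT histories, passed as higher in 1, fell in either, passed in neither, and were not tested. Of the 3 highest by mean, SAUR14 and SAUR6 lie among the genes that fell and SAUR16 among those that rose in both histories. Levels overlapped between classes, with the highest median in WT white light (61.2 TPM) in the genes that fell.

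In naive WT seedlings 1 h of shade raised 12 of the 28 tested genes and lowered 4. The test was limma on log2(TPM + 1) over all 21473 genes that reached the same limit, with Benjamini-Hochberg adjusted p under 0.05; 12.5% of all genes passed as higher and 23.1% as lower, 35.6% in either direction. The median log2 fold change of the 28 was 0.35, against -0.10 over all genes tested, and 19 of the 28 had an unadjusted p under 0.05. Under quantile normalization, which moves the median of all genes from -0.10 to 0.00, the split was 13 higher and 1 lower, and the falls of SAUR5, SAUR41 and SAUR78 no longer passed.

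The genes that rose most were SAUR28, SAUR26, SAUR10 and SAUR13. SAUR28 (AT3G03830, chromosome 3) was at 4.78 and 7.31 TPM in the 2 naive white light libraries and at 79.1 and 69.3 TPM in the 2 naive shade libraries, a log2 fold change of 3.44 ± 0.21 (SE; adjusted p = 3.38e-08). SAUR26 (AT3G03850), in the same tandem run on chromosome 3, went from 17.6 and 17.8 TPM to 107 and 116 TPM (log2 fold change 2.59 ± 0.28, adjusted p = 8.37e-06). Both genes, with SAUR27, belong to a group known for natural variation in growth at warm temperature, and in both the shade libraries lay far above the white light libraries.

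SAUR10 (AT2G18010, chromosome 2), a growth-promoting SAUR, rose from 3.63 and 3.23 TPM to 25.4 and 22.8 TPM (log2 fold change 2.50 ± 0.23, adjusted p = 1.97e-06). SAUR13 (AT4G38825, chromosome 4) rose from 3.62 and 5.85 TPM to 25.3 and 36.2 TPM (log2 fold change 2.47 ± 0.51, adjusted p = 0.00161). It overlaps AT4G38820 on the opposite strand, and without known strandedness its reads cannot be told from those of its partner. The groups did not overlap in either gene. The other genes that passed as higher were SAUR1, SAUR7, SAUR9, SAUR15, SAUR16, SAUR27, SAUR29 and SAUR50, with log2 fold changes of 0.63 to 2.40. SAUR15, first described as SAUR-AC1, is a classic early auxin-response gene. All 12 rises passed under each of 13 alternatives.

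SAUR26, SAUR27, SAUR28 and SAUR29, all on chromosome 3, all rose. Their summed level was 52.4 and 54.8 TPM in naive white light and 337 and 328 TPM in naive shade. They are closely similar in sequence: coding identity was 86.3% between SAUR27 and SAUR29 and 84.8% between SAUR26 and SAUR28, with no identical run longer than 36 bases. How the authors' counting treated reads that fit more than 1 of them is not given in the sources used here, so the split between the 4 is less certain than their sum.

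The 4 genes that fell in naive WT seedlings were SAUR31, SAUR5, SAUR41 and SAUR78. SAUR31 (AT4G00880, chromosome 4) fell from 25.9 and 22.5 TPM to 7.74 and 10.5 TPM (log2 fold change -1.33 ± 0.16, adjusted p = 2.24e-05) and passed under all 13 alternatives; it overlaps AT4G00883 on the opposite strand. SAUR5 (AT4G34810, chromosome 4) went from 3.24 and 2.36 TPM to 0.73 and 0.45 TPM (log2 fold change -1.25 ± 0.37, adjusted p = 0.0163). The white light and shade libraries did not overlap in either gene.

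SAUR41 (AT1G16510, chromosome 1), whose overexpression is known to lengthen hypocotyl cells, went from 3.71 and 2.77 TPM to 1.34 and 2.13 TPM (log2 fold change -0.64 ± 0.24, adjusted p = 0.0465), and SAUR78 (AT1G72430), a partner of ethylene receptors, had a log2 fold change of -0.54 ± 0.18 (adjusted p = 0.0322). The falls of SAUR5, SAUR41 and SAUR78 rest on single libraries. SAUR5 and SAUR78 no longer passed without the first naive white light library or the second naive shade library (adjusted p up to 0.0956 and 0.234), and SAUR41 no longer passed without either naive white light library or the first naive shade library (adjusted p up to 0.302). SAUR41 passed in 3 of 12 alternatives, and a pseudocount of 0.1, no minimum level, the replicate block and fits on fewer libraries also ended its call.

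**Figure D2:**
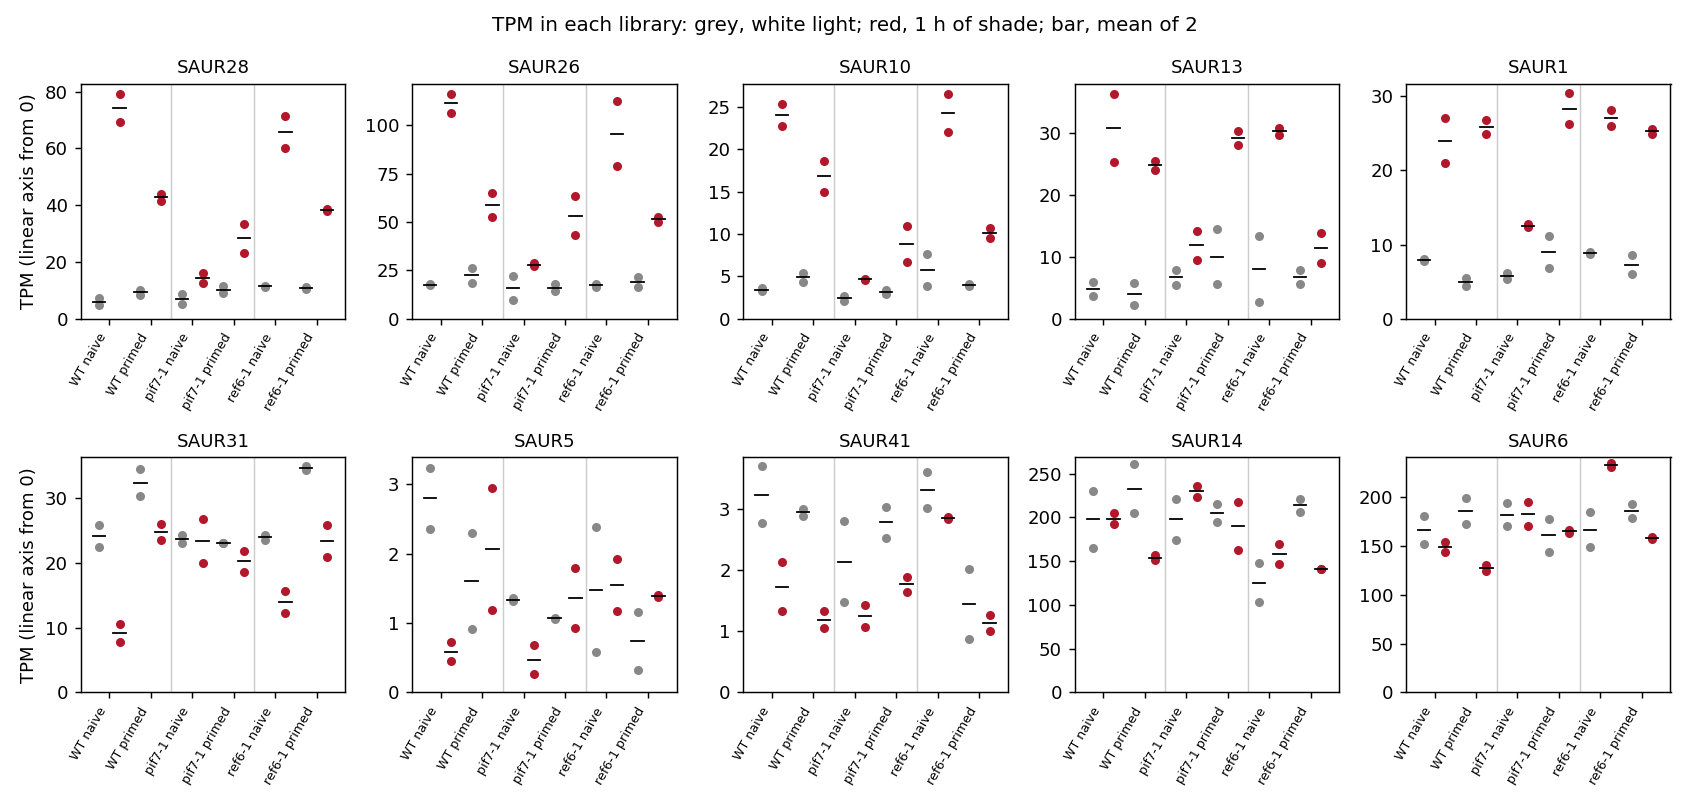
TPM of 10 SAUR genes (the 3 largest rises and falls in either WT history) in all 24 libraries, on linear axes from 0; grey points are white light, red points are 1 h of shade and black bars are means of 2. In WT the shade points of SAUR28, SAUR26, SAUR10, SAUR13 and SAUR1 lie above the white light points in both histories, while those of SAUR31 lie far below in naive seedlings (7.74 and 10.5 against 25.9 and 22.5 TPM).

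In primed WT seedlings shade raised 11 of the 28 genes and lowered 3, where 14.5% of all genes passed as higher and 8.94% as lower, 23.4% in either direction. The median log2 fold change was 0.24, against 0.02 over all genes, and 16 of the 28 had an unadjusted p under 0.05. The 11 that rose were all among the 12 that rose in naive seedlings; SAUR7 was the one that did not pass (log2 fold change 0.52). Leaving out 1 library gave 9 to 11 genes that passed in all, with 9 without the first primed white light library or the second primed shade library.

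SAUR13 led, from 5.71 and 2.29 TPM in primed white light to 25.4 and 24.1 TPM in primed shade (log2 fold change 2.45 ± 0.51, adjusted p = 0.00296). SAUR1 (AT4G34770, chromosome 4) rose from 4.47 and 5.5 TPM to 26.8 and 24.9 TPM (log2 fold change 2.17 ± 0.18, adjusted p = 1.66e-06), and SAUR28 from 10.1 and 8.51 TPM to 41.5 and 44.0 TPM (log2 fold change 2.09 ± 0.21, adjusted p = 8.33e-06). SAUR9 (AT4G36110), shown elsewhere to bind a PP2C.D phosphatase, followed with 2.06 ± 0.36 (adjusted p = 0.000798). In SAUR13, SAUR1 and SAUR28 the shade libraries lay above the white light libraries without overlap.

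SAUR26 went from 26.4 and 18.4 TPM to 65.2 and 52.7 TPM, and SAUR10 from 5.44 and 4.35 TPM to 18.6 and 15 TPM. The summed level of SAUR26 to SAUR29 was 76.8 and 61.6 TPM in primed white light and 184 and 177 TPM in primed shade, between the levels of the naive white light and the naive shade libraries. The rises of SAUR15 and SAUR16 were the least firm: SAUR15 no longer passed without the second primed white light library or either primed shade library (adjusted p up to 0.272), and SAUR16 without any 1 of the 4 libraries (adjusted p up to 0.103) or under quantile normalization. SAUR50 no longer passed without the first primed white light library (adjusted p = 0.0511).

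The 3 genes that fell were SAUR41, SAUR14 and SAUR6. SAUR41 went from 2.89 and 3.01 TPM to 1.33 and 1.06 TPM (log2 fold change -0.85 ± 0.24, adjusted p = 0.0172). SAUR14 (AT4G38840, chromosome 4), the most abundant of the 32, went from 261 and 205 TPM to 151 and 157 TPM (log2 fold change -0.58 ± 0.19, adjusted p = 0.0335). SAUR6 (AT2G21210, chromosome 2) went from 198 and 172 TPM to 131 and 124 TPM (log2 fold change -0.54 ± 0.12, adjusted p = 0.0060); its annotated gene overlaps SAUR7 on the same strand.

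None of these pairs of groups overlapped, but each fall depends on single libraries: SAUR41 did not pass without any 1 of the 4, SAUR14 without the first primed white light or either primed shade library, and SAUR6 without the first primed white light or the second primed shade library (adjusted p up to 0.119, 0.256 and 0.0726). In naive seedlings SAUR14 stood at 165 and 230 TPM in white light and 205 and 192 TPM in shade, with overlap, and SAUR6 at 152 and 181 TPM and 154 and 144 TPM, also with overlap.

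Before the second shade, primed and naive WT seedlings in white light differed at 1 of the 28 genes, SAUR16, which was at 87.9 and 84.5 TPM in naive and 135 and 125 TPM in primed seedlings (log2 fold change 0.59 ± 0.13, adjusted p = 0.0110). All genes passed at a rate of 7.53%, 1.85% as higher and 5.67% as lower, and 6 of the 28 had an unadjusted p under 0.05. SAUR16 no longer passed without the second naive white light library or the first primed white light library (adjusted p up to 0.0872). In the same comparison 3 of 6 green tissue markers passed as higher, with sums of 39819 to 47744 TPM in naive and 53803 to 56702 TPM in primed seedlings. Of the 8 root hair and endodermis markers 2 passed as lower. The part of both lists in the result was not tested.

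The shade response itself differed between the histories at 8 of the 28 genes, 3 with a higher and 5 with a lower log2 fold change in primed seedlings; over all genes 35.4% passed, 23.0% as higher and 12.4% as lower. The median difference of the 28 was -0.28, against 0.12 over all genes. Under quantile normalization, which moves that all-gene median to -0.01, the split was 1 higher and 11 lower. Of the 28, 14 had an unadjusted p under 0.05.

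The 5 genes with a smaller response after priming were SAUR29 (difference in log2 fold change -1.37 ± 0.35, adjusted p = 0.00681), SAUR28 (-1.35 ± 0.30, adjusted p = 0.00312), SAUR26 (-1.22 ± 0.40, adjusted p = 0.0259), SAUR27 (-0.95 ± 0.29, adjusted p = 0.0185) and SAUR10. SAUR26 to SAUR29 all passed in the same direction. SAUR28 and SAUR29 passed in all 17 alternatives, SAUR27 in 13, SAUR26 in 11 and SAUR10 in 10.

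The 3 genes with a higher value in primed seedlings were SAUR5 (difference 1.48 ± 0.53, adjusted p = 0.0395), SAUR31 (0.95 ± 0.23, adjusted p = 0.00439) and SAUR1 (0.70 ± 0.26, adjusted p = 0.0475). In SAUR5 and SAUR31 the naive libraries fell in shade, and the primed libraries of SAUR31 stood at 34.5 and 30.3 TPM in white light and 26 and 23.5 TPM in shade. SAUR31 passed in all 17 alternatives; SAUR5 passed in 7 of 16 and SAUR1 in 6 of 17.

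The omission of 1 library kept between 3 and 7 of these 8 calls: 3 without the second naive shade library, and 4 without either naive white light library, the first primed white light library or the second primed shade library. The summed level of 8 root hair and endodermis markers, none of them at 0, moved with the WT groups: 49.0 to 61.5 TPM in naive white light, 12.4 to 19.6 TPM in naive shade, 19.4 to 25.8 TPM in primed white light and 40.1 to 54.8 TPM in primed shade. Of the 8, all passed as lower in naive and 2 as higher in primed shade. Mitochondria-encoded transcripts summed to 321 to 559 TPM in WT naive shade and 60.7 to 186 TPM in the other WT groups. Their part in these results was not tested, except that TPM rescaled without the mitochondria-encoded genes gave the same 8 calls.

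**Figure D3:**
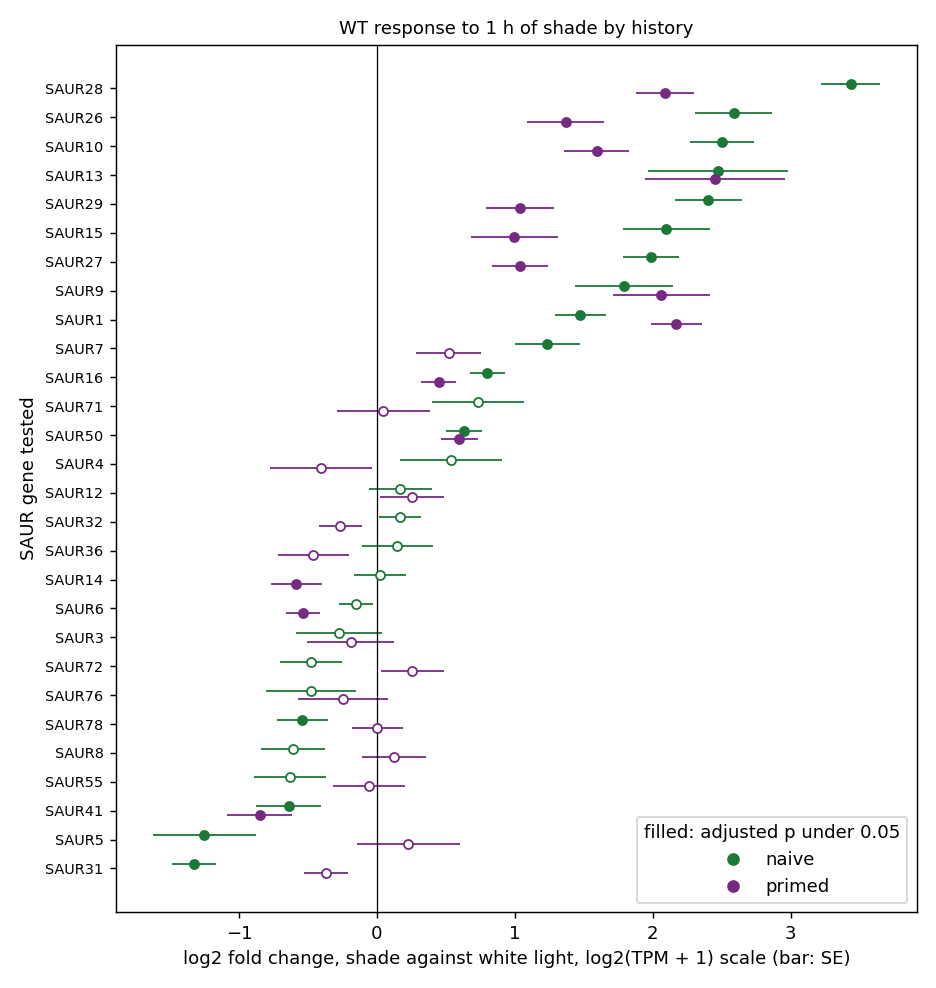
Log2 fold change of 28 SAUR genes in WT, shade against white light on the log2(TPM + 1) scale, in naive (green) and primed (purple) seedlings, with SE as bars and filled points where the adjusted p was under 0.05. SAUR28 lies at 3.44 in naive and 2.09 in primed seedlings, SAUR1 at 1.47 and 2.17, and SAUR31 at -1.33 and -0.37.

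Naive pif7-1 seedlings raised 3 of the 28 genes and lowered 1, where 1.89% of all genes passed as higher, 5.49% as lower and 7.38% in either direction. These were SAUR29 (log2 fold change 1.25 ± 0.25, adjusted p = 0.00638), SAUR1 (1.00 ± 0.18, adjusted p = 0.00425), SAUR28 (0.98 ± 0.21, adjusted p = 0.0114) and, lower, SAUR55 (-0.95 ± 0.26, adjusted p = 0.0389). SAUR28 stood at 5.22 and 8.65 TPM in naive pif7-1 white light and at 16.03 and 12.72 TPM in shade, and SAUR10 at 2.13 and 2.74 TPM and 4.57 and 4.75 TPM.

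All 11 genes that rose in both WT histories had log2 fold changes above 0 in naive pif7-1, from 0.16 to 1.25, with a median of 0.73; their median in naive WT, one of the responses that chose them, was 2.10. With only the 4 naive pif7-1 libraries in the limma fit 0 of the 28 genes passed, and 10 had an unadjusted p under 0.05. With all 24 in the fit, without the first naive white light pif7-1 library SAUR1, SAUR28 and SAUR29 did not pass (adjusted p up to 0.177), and without the first naive shade pif7-1 library SAUR28 and SAUR29 did not, and SAUR55 did not pass without any 1 of the 4.

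Tested directly, the naive response differed between pif7-1 and WT at 8 of the 28 genes, 7 with a lower and 1 with a higher value in pif7-1, where 6.49% of all genes passed as higher, 6.38% as lower and 12.9% in either direction. The median difference of the 28 was -0.46, against 0.03 over all genes, and 15 of the 28 had an unadjusted p under 0.05. SAUR28 (difference -2.46 ± 0.30, adjusted p = 0.000117), SAUR15 (-1.94 ± 0.45, adjusted p = 0.0100), SAUR10 (-1.77 ± 0.33, adjusted p = 0.00257) and SAUR26 (-1.70 ± 0.40, adjusted p = 0.0109) led, with SAUR27, SAUR29 and SAUR16 behind them. SAUR31 had a higher value in pif7-1 (1.29 ± 0.23, adjusted p = 0.00164): its naive pif7-1 libraries stood at 23.1 and 24.3 TPM in white light and 26.7 and 20.0 TPM in shade, with overlap. Naive pif7-1 and WT libraries belong to different deposit blocks, so genotype and block cannot be told apart here. In this comparison 2 of 8 root hair and endodermis markers and 2 of 6 green tissue markers passed as higher. Mitochondria-encoded transcripts summed to 321 to 559 TPM in WT naive shade and 73.05 to 91.88 TPM in naive pif7-1 shade. The part of these lists was not tested, except that rescaling without mitochondria-encoded genes kept the 8 calls.

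SAUR10, SAUR27, SAUR28 and SAUR31 passed under all 16 alternatives of this comparison. SAUR15 no longer passed without the second naive white light or the first naive shade pif7-1 library (adjusted p up to 0.0550). SAUR16 and SAUR29 no longer passed without any 1 of 7 of the 8 libraries compared (adjusted p up to 0.171 and 0.176); the one exception was the first naive white light pif7-1 library.

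Primed pif7-1 seedlings raised 8 of the 28 genes and lowered none, where 1.59% of all genes passed as higher, 3.42% as lower and 5.01% in either direction, and 13 of the 28 had an unadjusted p under 0.05. SAUR26 rose from 14.2 and 17.8 TPM to 43.1 and 63.3 TPM (log2 fold change 1.66 ± 0.28, adjusted p = 0.00381), SAUR1 from 6.87 and 11.2 TPM to 26.3 and 30.4 TPM (1.58 ± 0.18, adjusted p = 0.000164), SAUR28 from 8.91 and 11.4 TPM to 23.3 and 33.4 TPM (1.39 ± 0.21, adjusted p = 0.00182) and SAUR10 from 2.89 and 3.37 TPM to 6.71 and 10.9 TPM (1.22 ± 0.23, adjusted p = 0.00803). None of these groups overlapped. SAUR29, SAUR7, SAUR27 and SAUR16 also passed.

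With only the 4 primed pif7-1 libraries in the limma fit 0 of the 28 genes passed, and 12 had an unadjusted p under 0.05. Leaving out 1 library gave 2 to 9 genes that passed in primed pif7-1, the lowest number without the first primed white light library, where SAUR1 and SAUR28 alone were kept. The primed response of pif7-1 differed from that of WT at 1 of the 28 genes, SAUR6 (difference 0.58 ± 0.17, adjusted p = 0.0349), where 3.34% of all genes passed as higher, 12.8% as lower and 16.1% in either direction; 5 of the 28 had an unadjusted p under 0.05. SAUR6 stood at 144 and 178 TPM in primed pif7-1 white light and at 163 and 166 TPM in shade, with overlap, and its call was lost without any 1 of 6 of the 8 libraries compared, all but the second primed white light libraries of WT and pif7-1 (adjusted p up to 0.149). A missed threshold does not show like responses: the 95% intervals of the differences of the 28 genes reached from -2.40 to 2.08.

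Because the naive and primed differences from WT looked unlike, the difference between them was added as a comparison after these values were seen. It passed at 6 of the 28 genes, 5 higher and 1 lower, where 5.63% of all genes passed as higher, 13.3% as lower and 19.0% in either direction, and 11 of the 28 had an unadjusted p under 0.05. SAUR26 (1.99 ± 0.56, adjusted p = 0.0225), SAUR28 (1.75 ± 0.43, adjusted p = 0.0116), SAUR27 (1.57 ± 0.41, adjusted p = 0.0158) and SAUR7 (1.43 ± 0.47, adjusted p = 0.0442) had the highest values, followed by SAUR10, and SAUR31 was lower (-1.10 ± 0.32, adjusted p = 0.0257). SAUR27 and SAUR28 passed in all 24 alternatives, SAUR26 in 20, SAUR31 in 17, SAUR7 in 9 and SAUR10 in 8. The count ran from 2, without the first primed white light or the first naive shade pif7-1 library, to 11, without the first primed shade pif7-1 library. The naive and primed mutant libraries belong to different deposit blocks, so history and block cannot be told apart in pif7-1. In the same comparison 4 of 8 root hair and endodermis markers passed as lower, and their part in the result was not tested.

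The same comparison in the SAUR19-24 cluster gave 6 of 6 genes higher, with a median of 1.38, and in the SAUR61-68 cluster 3 of 8 higher, with a median of 0.85. In the naive response 6 of 6 and 7 of 8 genes of these clusters were lower in pif7-1 than in WT, and in the primed response 0 of 6 and 0 of 8. Among 12 early Aux/IAA and GH3 genes, which are auxin targets outside the SAUR family, 8 were lower in pif7-1 in the naive and 9 in the primed response. In primed white light, 1 of the 28 genes differed between pif7-1 and WT: SAUR1 was higher in pif7-1 (6.87 and 11.2 against 4.47 and 5.5 TPM, log2 fold change 0.71 ± 0.18, adjusted p = 0.0330), where 5.7% of all genes passed, 4.2% as higher and 1.49% as lower, and 6 of the 28 had an unadjusted p under 0.05. That call was lost without either WT or the second pif7-1 library (adjusted p up to 0.428).

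**Figure D4:**
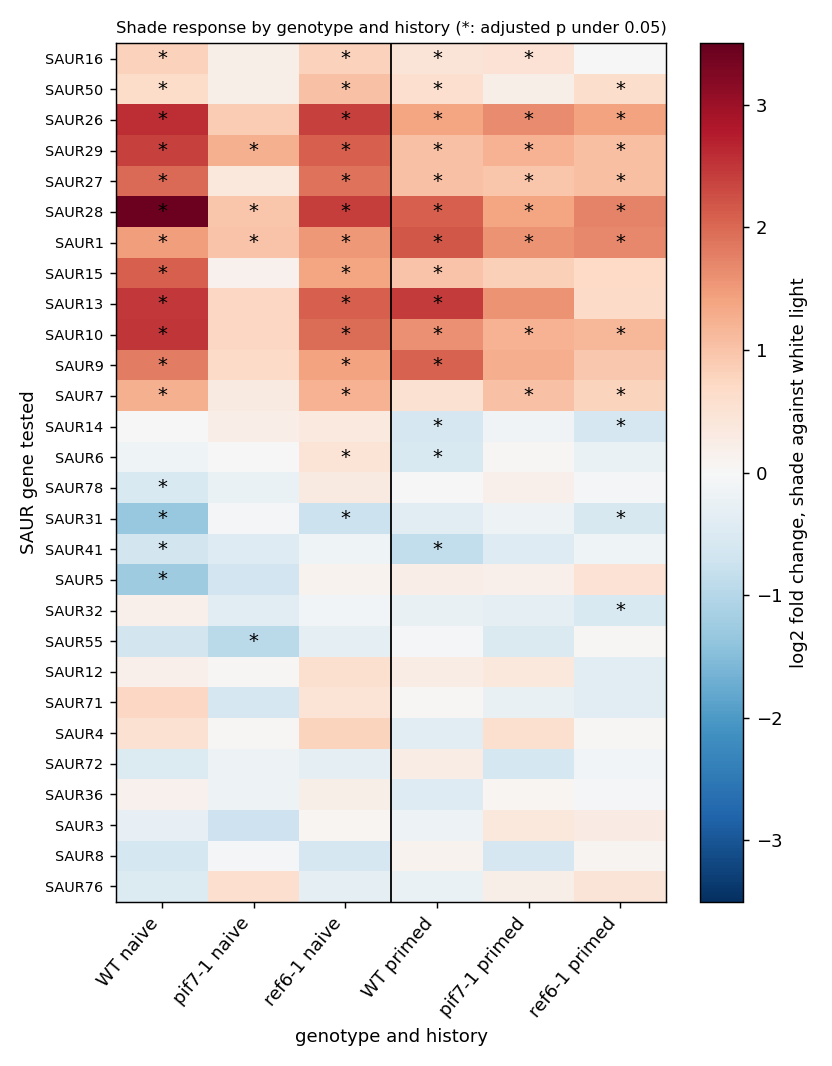
Log2 fold change of 28 SAUR genes (rows), shade against white light, in naive (left 3 columns) and primed (right 3 columns) seedlings of WT, pif7-1 and libraries labelled ref6-1; red is higher and blue lower in shade, and asterisks mark adjusted p under 0.05. SAUR28 reads 3.44, 0.98 and 2.42 in the groups labelled naive WT, pif7-1 and ref6-1 and 2.09, 1.39 and 1.74 in the primed groups.

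In the libraries labelled naive ref6-1 shade raised 13 of the 28 genes and lowered 1, where 8.96% of all genes passed as higher, 8.43% as lower and 17.4% in either direction. The 13 were the 12 genes that rose in naive WT and SAUR6. SAUR28 led, from 11.7 and 11.2 TPM to 71.32 and 59.99 TPM (log2 fold change 2.42 ± 0.21, adjusted p = 2.89e-06), with SAUR26 from 18.0 and 16.6 TPM to 113 and 79.0 TPM (2.38 ± 0.28, adjusted p = 5.49e-05), SAUR13 at 2.09 ± 0.51 (adjusted p = 0.0119) and SAUR29 at 2.09 ± 0.25 (adjusted p = 5.36e-05). SAUR31 fell from 23.5 and 24.3 TPM to 15.7 and 12.2 TPM (-0.75 ± 0.16, adjusted p = 0.00588). The shade and white light libraries of SAUR28, SAUR26 and SAUR31 did not overlap.

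With only the 4 libraries of this comparison in the fit, 2 of the 28 genes passed, and with 1 library left out 11 or 12 passed. SAUR6, SAUR9, SAUR13 and SAUR15 each lost the call without 1 of 2 libraries and SAUR31 without the second naive shade library (adjusted p up to 0.178). In the libraries labelled naive ref6-1 the root hair and endodermis markers summed to 61.4 to 90.2 TPM in white light and 14.2 to 21.0 TPM in shade, with 8 of 8 passing as lower. Their part in the result was not tested. Mitochondria-encoded transcripts summed to 58.9 to 61.7 TPM there in white light and 158 to 407 TPM in shade, and rescaling without them changed no call.

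In the libraries labelled primed ref6-1 shade raised 8 of the 28 genes and lowered 3, where 10.2% of all genes passed as higher, 2.58% as lower and 12.7% in either direction. SAUR28 rose from 10.5 and 11.01 TPM to 38.6 and 37.8 TPM (log2 fold change 1.74 ± 0.21, adjusted p = 9.24e-05), SAUR1 from 5.99 and 8.62 TPM to 24.9 and 25.6 TPM (1.68 ± 0.18, adjusted p = 3.48e-05), SAUR26 by 1.41 ± 0.28 (adjusted p = 0.00404) and SAUR10 by 1.15 ± 0.23 (adjusted p = 0.0044). SAUR14 (-0.60 ± 0.19, adjusted p = 0.0465), SAUR31 (-0.56 ± 0.16, adjusted p = 0.0307) and SAUR32 (-0.53 ± 0.15, adjusted p = 0.0329), a gene known from apical hook opening, fell. SAUR14 and SAUR31 lost the call without any 1 of the 4 libraries, and SAUR32 without any but the first primed white light library (adjusted p up to 0.240). Of the rises, SAUR1, SAUR10 and SAUR28 passed without any 1 library, whereas SAUR7, SAUR26, SAUR27, SAUR29 and SAUR50 each lost the call without at least 1 (adjusted p up to 0.250). The count in either direction was lowest, at 4, without the first primed shade library and 5 without the second primed white light library. Here the root hair and endodermis markers summed to 8.75 to 14.2 TPM in white light and 33.6 to 38.3 TPM in shade, with 4 of 8 passing as higher. Of the 6 green tissue markers 3 passed as lower. The part of both lists in the result was not tested.

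The shade response of the libraries labelled ref6-1 passed as different from that of WT at none of the 28 genes in naive seedlings, where 2.13% of all genes passed (1.31% as higher and 0.824% as lower), and at none in primed seedlings, where 2.65% did (1.67% and 0.973%). Libraries labelled naive ref6-1 and naive WT belong to different deposit blocks, so genotype and block cannot be told apart in the naive comparison. By limma 5 of the 28 naive and 3 of the 28 primed differences had an unadjusted p under 0.05. The 2 with the smallest p were SAUR6 (difference in naive seedlings, adjusted p = 0.0737) and SAUR28 (adjusted p = 0.101) in the naive comparison, and SAUR16 (adjusted p = 0.216) and SAUR13 (adjusted p = 0.242) in the primed comparison. The 95% intervals of the 28 differences reached from -1.91 to 2.50 in naive and from -3.30 to 1.68 in primed seedlings, so differences of that size are not shown to be absent. In primed white light SAUR41 alone was lower in the libraries labelled ref6-1 than in WT (0.88 and 2.02 against 2.89 and 3.01 TPM, log2 fold change -0.73 ± 0.24, adjusted p = 0.0486), where 15.5% of all genes passed, 4.43% as higher and 11.1% as lower, and 5 of the 28 had an unadjusted p under 0.05; the call was lost without either WT or the first ref6-1 library (adjusted p up to 0.380).

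Sorted by the WT responses, 11 genes rose in both histories (SAUR1, SAUR9, SAUR10, SAUR13, SAUR15, SAUR16, SAUR26, SAUR27, SAUR28, SAUR29 and SAUR50). SAUR7 passed as higher in naive seedlings only, and 6 genes fell in either history (SAUR5, SAUR6, SAUR14, SAUR31, SAUR41 and SAUR78). The remaining 10 tested genes passed in neither (SAUR3, SAUR4, SAUR8, SAUR12, SAUR32, SAUR36, SAUR55, SAUR71, SAUR72 and SAUR76). These calls made the classes, no difference between classes was tested, and what follows is a description. The response of SAUR7 did not pass as different between the histories (difference -0.71). Mean levels in WT white light overlapped widely, with medians of 9.20 TPM (range 1.25 to 108) in the 11 that rose, 61.2 TPM (2.20 to 215) in the 6 that fell and 5.78 TPM (0.84 to 36.6) in the 10 that passed in neither.

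Coding sequences had medians of 291 bases (range 270 to 339) in the 11 that rose and 364.5 bases (300 to 498) in the 6 that fell. In the 10 that passed in neither the median was 349.5 bases (285 to 552). The ranges overlapped: SAUR3, SAUR4, SAUR8, SAUR12 and SAUR71, which passed in neither, and SAUR14, which fell, lay within that of the 11. The median identity of a gene to its closest SAUR relative was 83.2% in the 11, 67.0% in the 6 and 67.0% in the 10. CATGTG lay in the 300-base window of 8 of the 11, 0 of the 1, 3 of the 6, 3 of the 10 and 2 of the 4 genes not tested. SAUR10, SAUR16 and SAUR50 rose without it in this window. Within 1000 bases all 11 held it, against 37.7% of all genes, as did 3 of the 6, 4 of the 10 and 2 of the 4 not tested. At that length the windows of SAUR27 and SAUR28 reach into each other's genes, as do those of SAUR14 and SAUR15. These are therefore not separate upstream regions, and overlap with other genes was not counted at 1000 bases. SAUR7, which passed as higher in naive seedlings only, did not hold it within 1000 bases.

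Neighbouring genes did not always share a class. On chromosome 4 the run SAUR50, SAUR1, SAUR2, SAUR3, SAUR4, SAUR5 also includes SAUR49, which is not among the genes described here. Without SAUR49 it held 2 genes that rose, 1 not tested, 2 that passed in neither and 1 that fell in naive seedlings. In the run SAUR14, SAUR15, SAUR16, also on chromosome 4, SAUR14 fell in primed seedlings while its neighbours rose in both histories, although SAUR14 and SAUR15 share upstream sequence. On chromosome 2, SAUR12 passed in neither, while SAUR16, its closest relative at 85.5% identity, rose in both histories; SAUR8 passed in neither, while SAUR50, at 83.2% identity, rose.

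The 10 genes that passed in neither include genes with known roles elsewhere in the plant: SAUR36 is known from leaf senescence, and SAUR71 and SAUR72 belong to the same subfamily as SAUR41. Their log2 fold changes in WT ranged from -0.63 to 0.73 in naive and from -0.46 to 0.26 in primed seedlings, around medians of -0.06 and -0.12. The threshold was missed narrowly by SAUR8 in naive seedlings (adjusted p = 0.0522). The 95% interval of SAUR71 there, 0.02 to 1.44, held positive values only, although its adjusted p did not pass. SAUR36 was even across groups, at 2.38 to 5.12 TPM in the 24 libraries.

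The other SAUR genes and the pathway around them were counted from lists chosen with earlier results of these data known. All 6 genes of the SAUR19-24 cluster rose in both WT histories (median log2 fold change 2.99 in naive and 1.99 in primed seedlings), and of the SAUR61-68 cluster 8 of 8 rose in naive and 7 of 8 in primed seedlings (medians 1.34 and 1.05). Of 24 further SAUR genes tested, 5 rose and 3 fell in naive and 1 rose and 2 fell in primed seedlings, with medians of -0.31 and -0.13. That is 33.3% called in naive, near the 35.6% of all genes, and 12.5% in primed seedlings, below the 23.4% of all genes. Among them SAUR46 was the gene with the largest rise (1.66 ± 0.22, adjusted p = 5.31e-05) and SAUR37 the one with the largest fall (-1.56 ± 0.31, adjusted p = 0.00137) in naive seedlings.

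Of 12 early Aux/IAA and GH3 genes 10 rose in naive and 11 in primed WT seedlings, led in naive seedlings by IAA29 (4.13 ± 0.23), with none lower. Of 9 PP2C.D phosphatase genes, the targets of SAUR proteins, 3 rose and 1 fell in naive and 3 rose and 2 fell in primed seedlings; AT5G02760 had the largest rise in both (2.41 ± 0.15 and 1.27 ± 0.15). The 5 plasma membrane proton pump genes, which the phosphatases act on, all fell in naive seedlings (median -0.68, HA2 the most with -1.45 ± 0.20), and 2 of the 5 rose in primed seedlings (HA11 the most with 0.62 ± 0.16); under quantile normalization the counts were the same.

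Of 5 TIR1/AFB auxin receptor genes 2 fell in naive and 2 rose in primed seedlings, and of 4 activating auxin response factor genes 3 fell in naive and 3 rose in primed seedlings. Over all genes 23.1% passed as lower in naive and 14.5% as higher in primed seedlings, and lists of 4 or 5 genes give only coarse shares. ARF6 had the largest fall (-1.02 ± 0.16). The 8 root hair and endodermis markers above moved alongside these lists, with 8 of 8 passing as higher in the difference between primed and naive responses, and their part in these results was not tested.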

How the data were processed

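Per the labels, total RNA was extracted from whole seedlings with TRIzol and sequenced, and the authors deposited 1 table of TPM values (transcript levels scaled for gene length and library size) for 33026 genes in 24 libraries. Per the submitters' processing notes, FastQC, cutadapt, STAR, HTSeq and DESeq2 were used with build TAIR10; their versions, the strandedness and how TPM was derived are not given in the sources used here. The deposited TPM values hold no counts, so no count model was used. Of these 33026 rows, 193 are assembled loci without a gene identifier.

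The test was limma (version 3.58.1, R 4.3.3) on log2(TPM + 1), with 12 group means, all 24 libraries in 1 fit and moderated variances with a trend. It covered the 21473 genes that reached 1 TPM in 2 or more libraries, and p-values were adjusted by Benjamini-Hochberg over all of them at 0.05. Fold changes on this scale understate the change of genes at low levels. The SAUR members, the gene lists and the comparisons were chosen with earlier results of these data known. Statistics are given for at most the 4 highest and 4 lowest genes that passed in a comparison, for the 2 of smallest p if none did, and for at most 2 genes of another list. Alternatives were quantile normalization, pseudocounts of 0.1 and 5, a minimum of 5 TPM, no minimum, the replicate number as a block, fits on fewer libraries and leaving out each library. TPM rescaled without mitochondria-encoded genes and the primed against naive difference of pif7-1 from WT were added after seeing the data. Gene positions, coding sequences and promoters came from RefSeq's TAIR10.1 by gene identifier.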

Additional observations from a re-analysis of the deposited data

Results flagged for a closer look

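Differences between shade responses that passed the test of the difference itself (limma, adjusted p under 0.05) are collected here as values. Each is a difference of log2 fold changes, primed minus naive or pif7-1 minus WT.

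Between primed and naive WT seedlings the difference was -1.37 for SAUR29, -1.35 for SAUR28, -1.22 for SAUR26, -0.95 for SAUR27 and -0.91 for SAUR10. It was 0.70 for SAUR1, 0.95 for SAUR31 and 1.48 for SAUR5.

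Between naive pif7-1 and naive WT seedlings it was -2.46 for SAUR28, -1.94 for SAUR15, -1.77 for SAUR10, -1.70 for SAUR26, -1.62 for SAUR27, -1.15 for SAUR29 and -0.60 for SAUR16, and 1.29 for SAUR31. Between primed pif7-1 and primed WT seedlings it was 0.58 for SAUR6.

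In the comparison added after seeing the data, the primed difference of pif7-1 from WT minus the naive one, the value was 1.99 for SAUR26, 1.75 for SAUR28, 1.57 for SAUR27, 1.43 for SAUR7 and 1.40 for SAUR10, and -1.10 for SAUR31. SAUR31 alone of these 6 had a negative value. The naive WT response enters this value with a plus sign. By arithmetic the fall of SAUR31 there lowers its value, and the rises of the other genes there raise theirs. The naive WT libraries enter the history difference, the naive difference of pif7-1 from WT and the added comparison. A gene that recurs among these lists is therefore not independent evidence.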

How the results depend on the processing

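None of the 93 calls changed direction under the alternatives run, and 93 of 93 calls were kept when TPM was rescaled without mitochondria-encoded genes. Quantile normalization lost 11 of 93 and made 20 calls that the reported fit did not, 6 of them in the history difference. The libraries labelled naive ref6-1 then differed from WT at 1 gene in their response. It gave 4 genes in white light between the WT histories and 0 between ref6-1 and WT in primed white light, and splits of 0 higher and 1 lower for pif7-1 in primed white light and 8 higher and 0 lower for the added comparison. When the fit held the compared groups alone, 42 of 93 were lost: 0 genes passed in naive pif7-1, 0 in primed pif7-1, 2 in naive ref6-1, 7 in primed ref6-1, 5 in the naive difference of pif7-1 from WT, and 0 in its primed difference, in both mutant white light comparisons and between the WT histories in white light (2 to 5 of the 28 with an unadjusted p under 0.05 by limma in these last 4). A pseudocount of 5 gave 2 between the WT histories in white light and 0 for pif7-1 in primed white light. The first 16 libraries alone gave 0 for pif7-1 in primed white light and 2 in its primed difference. With no minimum level 5 genes passed in the history difference. For ref6-1 in primed white light 0 passed with a pseudocount of 0.1, a minimum of 5 TPM, no minimum or the replicate block. These counts of 0 for the mutants in primed white light stand beside 2 to 6 of the 28 with an unadjusted p under 0.05.

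The replicate block lost 3 of 93 calls and gave 16 genes in naive WT, 15 of them shared with the reported fit (SAUR41 was lost), and 14 in primed WT. Same-numbered libraries deviated together with r of -0.12 to 0.13 over 66 pairs of groups (median 0.0017), with 6 pairs over 0.1. A correlation over all genes cannot exclude a shared batch in some groups or genes. Leaving out 1 library lost 48 of 93 calls under at least 1 omission and gave 13 to 16 genes in naive WT, 9 to 11 in primed WT, 0 to 5 in naive and 2 to 9 in primed pif7-1, 11 to 12 in naive and 4 to 9 in primed ref6-1, 0 to 1 in each of the 3 white light comparisons, 3 to 8 in the history difference, 5 to 11 in the naive and 0 to 2 in the primed difference of pif7-1 from WT, 0 to 0 in both of ref6-1, and 2 to 11 in the added comparison. Where it left a group with 1 library, that library was assumed to vary like the other groups. Depth is unknown, and genes near 1 TPM such as SAUR5, SAUR8 and SAUR76 are the least precise.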
